A study of Mus musculus with 2 samples.

Results

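Of 1839 barcodes with a Kupffer cell profile in the early lesion library, 179 also held at least 4 UMIs, in sum, of 6 genes of liver metabolism, namely Rgn, Pck1, Hpd, Agxt, Oat and Mat1a. These 179 barcodes, called members here, are 9.73% of the Kupffer barcodes (exact Clopper-Pearson 95% interval 8.42 to 11.2%) and stand among 3477 barcodes in all. A UMI is a molecular tag that counts 1 captured RNA molecule, and a barcode marks 1 droplet, which usually holds 1 cell. A barcode entered if it had at least 1000 UMIs, at least 300 detected genes, at most 25% mitochondrial UMIs and less than 0.5% of its UMIs from Alb, the serum albumin gene. It was called Kupffer if Clec4f, Vsig4, Cd5l and Marco summed to at least 3 UMIs and to more than Gpnmb, Mmp12, Itgax and H2-M2. The members were set against the 1660 other Kupffer barcodes and against 62 barcodes of the same library with at least 0.5% Alb, called Alb-high. The members were thus chosen by the counts of the 6 genes, of Alb and of the Kupffer genes, so those values describe the choice and support nothing.

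The cells came from livers of mice in which the Rb gene family was inactivated by Cre recombination (Rb family triple knockout), a model of liver cancer. Tissue was digested, YFP-positive cells were sorted as those in which Cre had acted, and the animals were otherwise untreated. The early lesion library pooled 3 mice. The labels do not name the Cre driver or the mouse ages, and both libraries come from the same kind of animal, with no wild-type sample. A second library came from macroscopic lesions. With 1 library per stage there is no biological replicate and no test. Every interval below covers counting error only, at 95%, and not variation between mice.

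Kupffer cells are the resident macrophages of the liver sinusoid. They take up aged red cells, microbes and cell debris, and they touch hepatocytes across the sinusoidal wall. Hepatocytes make most plasma proteins and carry the enzymes of gluconeogenesis, urea formation, amino acid breakdown and methyl-group metabolism. Among the 6 genes, Rgn encodes the calcium-binding protein regucalcin, Pck1 the phosphoenolpyruvate carboxykinase of gluconeogenesis and Hpd an enzyme of tyrosine breakdown. Agxt encodes a glyoxylate-detoxifying aminotransferase, Oat ornithine aminotransferase, and Mat1a the liver form of the enzyme that makes S-adenosylmethionine. Aldh1l1, a further marker outside the rule, encodes an enzyme of folate metabolism. In GENCODE's annotation of GRCm38 the genes lie at chrX:20549787-20562089 (Rgn), chr2:173153048-173159273 (Pck1), chr5:123171807-123182727 (Hpd), chr1:93135240-93145421 (Agxt), chr7:132557478-132576398 (Oat) and chr14:41105035-41124412 (Mat1a).

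The early library held 3221 barcodes with 12637053 UMIs and the macroscopic library 256 barcodes with 7271368 UMIs, and no barcode sequence occurred in both. The filters kept 2461 early barcodes. Median depth was 3816 UMIs in members, 2518 in other Kupffer barcodes and 16106 in Alb-high barcodes, and median detected genes were 1698, 1226.5 and 4184.5 in the same order. Median mitochondrial share was 8.17% in members, 8.71% in other Kupffer and 7.74% in Alb-high barcodes. Scrublet, a doublet caller, marked 2 of 2461 barcodes and none of the members. This rate is so low that the calls were not relied on and no doublet was removed. How well the caller worked on this library was not tested. Whether a droplet held a Kupffer cell and a hepatocyte together was not tested.

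Kupffer genes outside the rule were, in sum, slightly lower in members than in other Kupffer barcodes. Clec4f, Vsig4, Cd5l and Marco chose both groups, so their UMIs, which are not scaled for depth, only describe the choice. Their sum ran from 6 to 615 with a median of 63 in members, against 3 to 438 with a median of 45 in other Kupffer barcodes. A Clec4f UMI was present in 174 of 179 members and a Cd5l UMI in 178. The 14 Kupffer identity genes that the rule did not use summed to 8766 CPM (UMIs scaled to a total of 1000000 per group) in members and 9523 CPM in other Kupffer barcodes, a ratio of 0.921 (0.899 to 0.943), and to 292.5 CPM in Alb-high barcodes. Timd4, a receptor for dying cells on resident Kupffer cells, was at 334.8 CPM in members, 310.2 CPM in other Kupffer and at 0 UMIs in Alb-high barcodes. Slc40a1, the iron exporter, was at 1855 CPM in members and 2137 CPM in other Kupffer barcodes. Of these 14 genes none differed by 2-fold.

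The number of rule-gene UMIs declined steadily over the Kupffer barcodes, with no gap at the limit of 4. None of the 6 genes had a UMI in 828 Kupffer barcodes (45.0%), 1 UMI was present in 467, 2 in 227 and 3 in 138. Just inside the limit, 63 barcodes had 4 UMIs, at a median depth of 3651 UMIs, and the 138 just outside it had a median depth of 3165 UMIs. In members the sum ran from 4 to 27 UMIs with a median of 5, and 25 members had 10 or more. As a share of a member's UMIs the 6 genes made up 0.0231 to 0.848%, with a median of 0.155%.

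**Figure D1:**
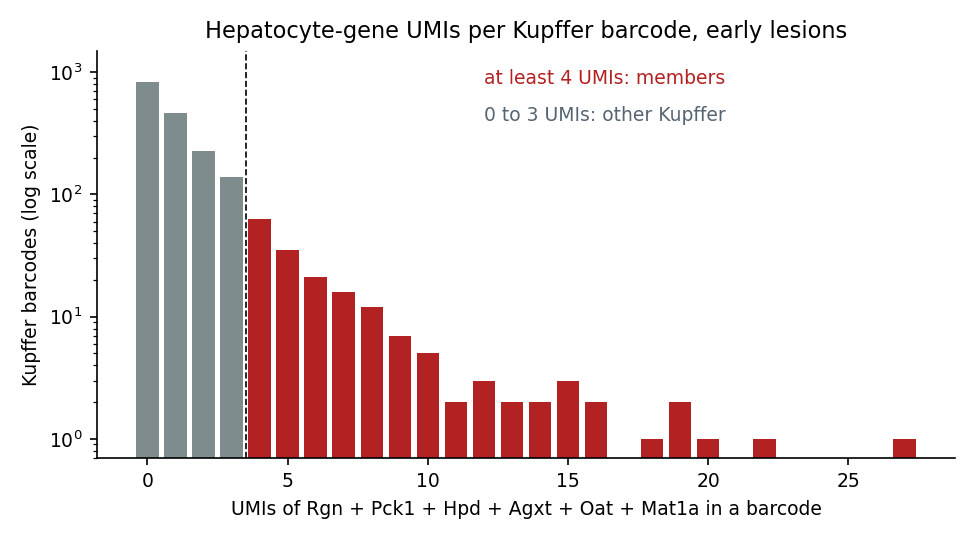
Number of Kupffer barcodes (vertical axis, log scale) by their summed UMIs of Rgn, Pck1, Hpd, Agxt, Oat and Mat1a (horizontal axis). Red bars are the 179 members, grey bars the 1660 other Kupffer barcodes and the dashed line is the limit. The counts decline without a break, with 63 barcodes at 4 UMIs and 138 at 3.

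The rule sets a sum and not which of the 6 genes must be present. At least 3 of them had a UMI in 142 members (79.3%), all 6 in 8 members, and 1 gene in 8 members. Mat1a had a UMI in 159 members, Oat in 110, Hpd in 108, Pck1 in 104, Rgn in 85 and Agxt in 40. Mat1a ran from 0 to 10 UMIs per member with a median of 2, and stood at 457 CPM in members, 56.5 CPM in other Kupffer and 599 CPM in Alb-high barcodes. Pck1 ran from 0 to 6 UMIs with a median of 1, at 198 CPM in members, 24.5 CPM in other Kupffer and 234 CPM in Alb-high barcodes. Hpd ran from 0 to 8 UMIs with a median of 1, at 219, 33.7 and 188 CPM in members, other Kupffer and Alb-high barcodes.

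The other 3 genes of the rule were scarce in the Alb-high barcodes. Rgn was at 129 CPM in members (0 to 4 UMIs, median 0), at 13.2 CPM in other Kupffer barcodes and at 4.70 CPM in Alb-high barcodes, which held 5 Rgn UMIs among 1063105. Oat was at 261 CPM in members (0 to 9 UMIs, median 1), 93.2 CPM in other Kupffer and 3.76 CPM in Alb-high barcodes, on 4 UMIs. Agxt was at 56.7 CPM in members (0 to 3 UMIs, median 0), 10.9 CPM in other Kupffer and 14.1 CPM in Alb-high barcodes. In the 88 Alb-high barcodes of the macroscopic library Rgn had 1 UMI and Oat 3 UMIs, while Mat1a was at 255 CPM.

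Each of the 6 genes was also read where its own count had not chosen the barcodes. Kupffer barcodes with at least 4 UMIs of the other 5 genes had 7.03 times as much Rgn as the rest (5.24 to 9.43), with 116 CPM in 161 barcodes against 16.5 CPM in 1678. The same ratio was 4.98 for Pck1, 4.68 for Hpd, 4.47 for Mat1a and 3.32 for Agxt. For Oat it was 1.78 (1.44 to 2.19), with 194 CPM in 126 barcodes against 109 CPM in 1713. So 5 of the 6 genes passed 2-fold and Oat did not. The chosen barcodes were deeper, with medians of 3524 to 4389 UMIs against 2521 to 2556 in the rest, and the part of depth in these ratios was not tested.

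The start region of Oat is shown beside those of Aldh1l1 and Alb, since the amounts of these 3 RNAs separated in the barcodes. Each runs 5′ to 3′ on the gene's strand over 250 bases before and 50 after the RefSeq start (GRCm38.p6), and capitals mark CCAAT or its reverse complement. Oat lies at chr7:132576349-132576648 on the minus strand, Aldh1l1 at chr6:90550543-90550842 and Alb at chr5:90460620-90460919 on the plus strand.
Oat: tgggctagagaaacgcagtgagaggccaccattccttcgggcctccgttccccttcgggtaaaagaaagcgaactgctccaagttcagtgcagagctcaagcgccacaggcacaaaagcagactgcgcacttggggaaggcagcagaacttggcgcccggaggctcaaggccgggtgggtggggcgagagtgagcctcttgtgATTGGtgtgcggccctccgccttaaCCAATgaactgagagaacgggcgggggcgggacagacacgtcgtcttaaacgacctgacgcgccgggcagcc
Aldh1l1: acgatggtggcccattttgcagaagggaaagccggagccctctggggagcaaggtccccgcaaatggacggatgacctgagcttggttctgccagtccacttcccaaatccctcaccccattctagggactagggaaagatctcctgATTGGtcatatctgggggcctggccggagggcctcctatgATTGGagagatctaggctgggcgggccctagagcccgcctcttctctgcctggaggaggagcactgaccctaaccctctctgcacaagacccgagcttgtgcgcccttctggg
Alb: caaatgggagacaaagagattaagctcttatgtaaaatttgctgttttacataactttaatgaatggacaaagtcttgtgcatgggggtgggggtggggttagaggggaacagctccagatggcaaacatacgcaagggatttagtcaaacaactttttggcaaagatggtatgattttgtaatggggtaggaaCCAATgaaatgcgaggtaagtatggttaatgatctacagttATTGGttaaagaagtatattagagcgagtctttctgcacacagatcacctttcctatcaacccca
CCAAT was searched on both strands and begins at -47 and -22 in Oat, -103 and -63 in Aldh1l1 and -56 and -15 in Alb, counted from the start. It is common, in 37.9% of 27025 mouse windows of this kind. GAGGAAGT, a sequence bound by the macrophage factor PU.1, CAAAGTCCA, bound by HNF4, and TATAAA were in none of these 3 windows, and in 3.28%, 0.477% and 14.2% of all windows. They were also absent from the windows of Pck1, Hpd and Agxt, and no match says only that these letters are not there.

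The members were also split by Oat, after its values were seen. The Oat count made the split, so more Oat and fewer UMIs of the other rule genes on 1 side follow from it. No other rule gene was split so, and the split does not show that Oat stands apart. Without Mat1a, 91 Kupffer barcodes reached 4 UMIs. Without Oat, 126 members still reached 4 UMIs, and 53 reached the limit only with Oat. Liver enzyme genes outside the rule (184 genes) summed to 12376 CPM in the 126, 7643 CPM in the 53 and 5666 CPM in other Kupffer barcodes. Aldh1l1 was at 231 CPM in the 126, 58.5 CPM in the 53 and 26.4 CPM in other Kupffer barcodes. Oat itself was at 194 CPM in the 126, 362 CPM in the 53 and 93.2 CPM in other Kupffer barcodes. In 5 members Oat was the only gene of the rule detected, and these 5 had 8002 to 28744 UMIs. They held no UMI of Aldh1l1, Gnmt or Fabp1, which allows up to 45.6 CPM at the upper exact Poisson bound. They held 2 UMIs of Bhmt and 6 of Alb, and their enzyme genes summed to 6335 CPM (5798 to 6908), against 5666 CPM in other Kupffer barcodes.

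**Figure D2:**
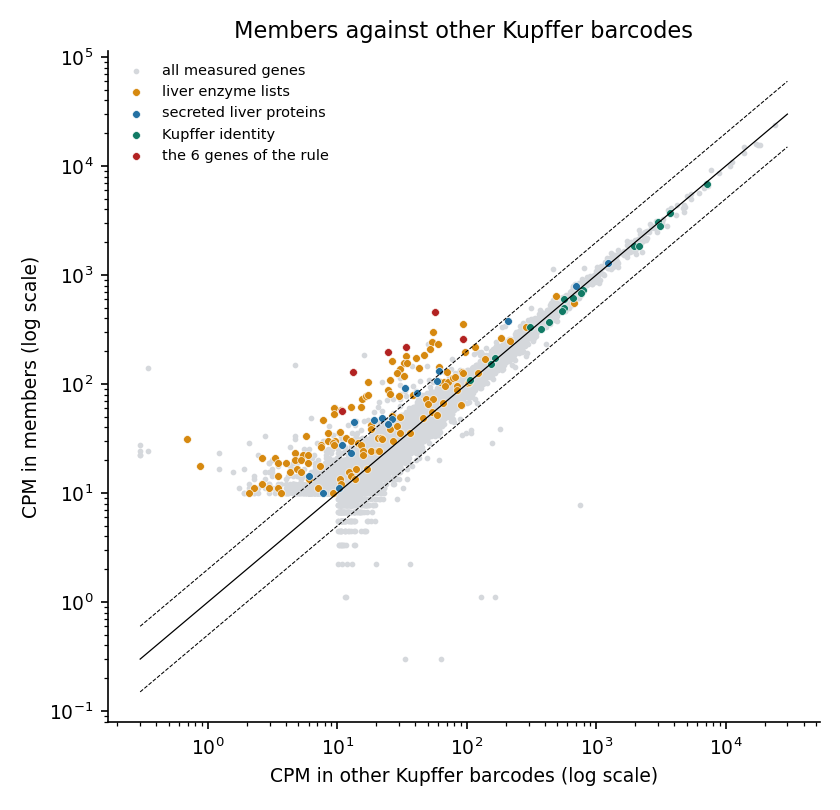
CPM of each measured gene in members (vertical axis) against other Kupffer barcodes (horizontal axis), both on log scales; values under 0.3 are drawn at 0.3. The solid line marks equal levels and the dashed lines 2-fold; orange liver enzyme genes lie mostly above the line, green Kupffer identity genes along it, and blue secreted liver proteins between, while the red genes chose the members.

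Members held more RNA of liver enzymes than other Kupffer barcodes, while macrophage genes were at similar levels. Among 8421 genes with at least 10 CPM in either group and 20 UMIs in both together, 327 (3.88%) were at least 2-fold higher in members and 123 (1.46%) at least 2-fold lower. Without the genes of the rule, 321 were higher and 121 lower. Over the 8421 genes the log2 ratio had a median of 0.03. Of the 321, 78 belong to the hepatocyte lists, 242 were also more than 2-fold higher in Alb-high than in other Kupffer barcodes, and 235 had a UMI in at least 10 members. After thinning to 2000 UMIs the split was 392 higher and 440 lower, and without the top barcode of each gene and group it was 244 and 233, so the balance of higher to lower genes depends on depth and on single barcodes. The contrast is the one that chose the members.

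Amino acid and urea cycle genes stood out by count. Of 42 listed genes, 27 outside the rule were measured. Of these 27, 20 were at least 2-fold higher in members and none lower, with a median log2 ratio of 1.68. The share higher over all measured genes was 3.88%. A gene could be measured through members alone, as were Cth and Dpys, named below. This raises the share of higher genes and the median ratio in this and the following lists. Ass1, which forms argininosuccinate in the urea cycle, was at 245.8 CPM in members, 54.0 CPM in other Kupffer and 1153 CPM in Alb-high barcodes, a ratio of members to other Kupffer of 4.55. Otc, which forms citrulline, was at 57.8 CPM in members and 10.6 CPM in other Kupffer barcodes, a ratio of 5.46 (3.69 to 8.03). Cps1, which makes carbamoyl phosphate, was at 62.3 CPM in members and 15.1 CPM in other Kupffer barcodes. The tyrosine pathway genes Tat, Hgd and Fah were 4.28, 4.65 and 4.67 times as high in members. Glul, glutamine synthetase, went the other way at 552.8 CPM in members and 668.6 CPM in other Kupffer barcodes, and at 28.2 CPM in Alb-high barcodes.

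Arg1, arginase 1, was at 299 CPM in members and 54.7 CPM in other Kupffer barcodes, a ratio of 5.46 (4.63 to 6.45), but its UMIs were spread unevenly. Of its 269 UMIs in members 52 lay in 1 barcode and 45 in another, and neither of these 2 barcodes had Rgn, Pck1 or Mat1a. Without the top barcode of each group the ratio was 4.84. Arginase is also made by some macrophages, so hepatocyte and macrophage Arg1 cannot be told apart here.

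Methionine and folate genes followed the same course, with 12 of 18 measured genes at least 2-fold higher and none lower, at a median log2 ratio of 1.64. Gnmt, which consumes S-adenosylmethionine, was at 232.5 CPM in members, 60.1 CPM in other Kupffer and 602 CPM in Alb-high barcodes. Bhmt, which remethylates homocysteine, had a UMI in 96 members and stood at 180 CPM in members and 33.9 CPM in other Kupffer barcodes, a ratio of 5.32 (4.29 to 6.58). Cth, which makes cysteine from cystathionine, was at 60.1 CPM in members and 9.39 CPM in other Kupffer barcodes. Aldh1l1 had a UMI in 75 of 179 members and 135 of 1660 other Kupffer barcodes, with at most 7 and 3 UMIs per barcode, and 162 CPM against 26.4 CPM, a ratio of 6.15 (4.86 to 7.77). Mat2a, the form of methionine adenosyltransferase found in most cells, was at 125.7 CPM in members and 121.1 CPM in other Kupffer barcodes.

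Vitamin, purine and other liver enzymes gave 13 of 16 genes at least 2-fold higher, with a median log2 ratio of 1.98. Uox, urate oxidase, was at 155.7 CPM in members and 34.8 CPM in other Kupffer barcodes. Dpys, of pyrimidine breakdown, was at 53.4 CPM in members and 9.39 CPM in other Kupffer barcodes. Rarres2, in this list, had 26 of its 28 UMIs in 1 member and cannot be read as a value of the group. Cytochrome P450 and conjugation enzymes gave 8 of 14 measured genes higher, from 36 listed, at a median log2 ratio of 1.07. Gsta3, a glutathione transferase, was at 154.6 CPM in members and 32.5 CPM in other Kupffer barcodes, and Aldh1a1, a retinal dehydrogenase, at 104.5 and 17.2 CPM. A further 7 genes of that list, among them Cyp1a2 and Ugt2b1, had no UMI in members.

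Gluconeogenesis, fatty acid and bile acid genes were mixed. In gluconeogenesis and glycogen metabolism 7 of 17 genes were at least 2-fold higher, with a median log2 ratio of 0.52. Fbp1, a bisphosphatase of gluconeogenesis, was at 136.8 CPM in members and 30.6 CPM in other Kupffer barcodes. Ldha, a lactate dehydrogenase subunit used by most cells, was at 335.9 CPM in members and 285.9 CPM in other Kupffer barcodes. G6pc, the last enzyme of glucose release, and Slc2a2, the hepatocyte glucose transporter, had no UMI in members. In fatty acid oxidation and ketogenesis 7 of 25 genes were higher, among them Fabp1, the liver fatty acid binding protein, at 359 CPM in members and 93.5 CPM in other Kupffer barcodes. Bile acid genes gave 3 of 7 measured, from 18 listed, with Akr1c6 at 174.6 CPM in members and 40.8 CPM in other Kupffer barcodes. Cyp7a1 and Cyp8b1 had 0 UMIs in members.

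Of 16 measured secreted liver protein genes other than Alb, 8 were at least 2-fold higher in members, with a median log2 ratio of 0.95, and the 31 listed genes without Alb summed to 2886 CPM in members and 2347 CPM in other Kupffer barcodes, a ratio of 1.23 (1.18 to 1.28). Apoa1, the main HDL apolipoprotein, was at 48.9 CPM in members, 22.2 CPM in other Kupffer and 5564 CPM in Alb-high barcodes. Ttr, transthyretin, was at 47.8 CPM in members, 26.6 CPM in other Kupffer and 7042 CPM in Alb-high barcodes. Apoc1 and Trf, which made up most of this sum, were at 1282 and 795 CPM in members and at 1241 and 699 CPM in other Kupffer barcodes. Alb, which the rule limits, was at 377 CPM in members, 210 CPM in other Kupffer and 20478 CPM in Alb-high barcodes, and 44 of 179 members had no Alb UMI.

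Of 5 measured hepatocyte transcription factors, from 20 listed, 1 was at least 2-fold higher in members. This was Hnf4a, at 13.3 CPM in members on 12 UMIs and 5.21 CPM in other Kupffer barcodes on 30 UMIs. Foxa1 and Nr1i2 had no UMI in members. Lipid synthesis genes gave 4 of 17, peroxisome genes 4 of 15 and mitochondrial respiration genes 0 of 20, at a median log2 ratio of 0.16 for the last list. Of the periportal genes, expressed where blood enters the lobule, 5 of 7 were higher. Of 4 measured pericentral genes outside the rule 1 was higher, Cyp2e1, an ethanol-oxidising P450, at 32.2 CPM in members, 11.6 CPM in other Kupffer and 0.941 CPM in Alb-high barcodes. Rgn and Oat, both of the rule, also stand in the pericentral list.

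Most macrophage genes were within 2-fold between the groups. None of 15 macrophage core genes and none of 19 lysosome genes differed by 2-fold, with median log2 ratios of 0.02 and -0.04. Lyz2, lysozyme, was at 9210 CPM in members and 7689 CPM in other Kupffer barcodes, and C1qa, a complement subunit, at 5327 and 5017 CPM. The 7 measured MHC class II genes were all lower in members, none by 2-fold, with H2-Ab1 at 1622 CPM in members and 2248 CPM in other Kupffer barcodes. Of 14 phagocytosis receptor genes outside the rule 1 was lower, Mfge8, at 1.11 CPM in members and 11.6 CPM in other Kupffer barcodes. Of 7 lipid-associated macrophage genes 1 was higher and 1 lower. Lgals1, galectin 1, was at 234.7 CPM in members and 50.4 CPM in other Kupffer barcodes, with 137 of its 211 UMIs in 1 member, and Spp1 was lower through 1 other Kupffer barcode. Of 14 iron and haem genes Hamp was higher and Tfrc lower.

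Some stress and inflammatory genes were lower in members. Of 20 immediate-early and heat-shock genes 5 were at least 2-fold lower in members and none higher, with a median log2 ratio of -0.49. The share lower over all measured genes was 1.46%, and after thinning to 2000 UMIs 440 of 8116 genes were lower. Fos, an immediate-early factor, was at 34.5 CPM in members and 92.5 CPM in other Kupffer barcodes, a ratio of 0.373 (0.251 to 0.536). After thinning its log2 ratio was -0.92, less than 2-fold. Hspa1a and Hspa1b, a nearly identical pair of Hsp70 genes whose reads can be split between them, were both at 35.6 CPM in members and at 99.4 and 108 CPM in other Kupffer barcodes. Their log2 ratios after thinning were -2.41 and -3.63. Of 8 inflammatory genes 3 were lower, namely Cxcl2, Ccl2 and Il1a, but 137 of the 208 Cxcl2 UMIs in other Kupffer barcodes lay in 1 barcode. Il1b was at 149 CPM in members and 222.6 CPM in other Kupffer barcodes.

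Several of the largest differences came from 1 barcode. Igfbp5 had 127 UMIs in members, all in 1 barcode, and 2 UMIs in other Kupffer barcodes. The same barcode, with 19082 UMIs, held 122 of the 134 Dcn UMIs, all 22 Col3a1 UMIs and all 21 Krt19 UMIs of the members, and its 9 rule UMIs were all Oat. Alox15, a macrophage lipoxygenase, had 102 of 165 UMIs in another member, in which 4 of 5 rule UMIs were Oat. Of the 321 higher genes outside the rule, 68 took more than 25% of their UMIs from 1 member.

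On the lower side the haemoglobin genes led, with Hbb-bs at 7 UMIs in members and 4326 in other Kupffer barcodes, of which 3428 lay in 1 barcode. Hba-a1 and Hba-a2 had 1 UMI each in members, and Hbb-bt none against 361. These are near-identical copies whose reads cannot be assigned with certainty. Clu and Spp1, both also abundant in Alb-high barcodes, had 761 of 902 and 803 of 1037 UMIs in 1 other Kupffer barcode, which held 3 Kupffer-gene UMIs, the least the rule allows. Without the top barcode of each group the Clu ratio was 0.998 and the Spp1 ratio 0.848. Retnla had 18 UMIs in 2 members and 349 UMIs in 13 other Kupffer barcodes.

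The summed markers of most other cell types were at similar or lower levels in members. T and NK markers summed to 1.11 CPM in members and 15.5 CPM in other Kupffer barcodes, with 8 of 9 at 0 in members. Erythroid markers summed to 10.0 CPM in members and 1109 CPM in other Kupffer barcodes, neutrophil markers to 74.5 and 93.3 CPM, endothelial markers to 697 and 722 CPM, and B cell markers to 28.9 and 22.4 CPM. Cholangiocyte markers summed to 70.1 CPM in members and 213 CPM in other Kupffer barcodes, of which Spp1 made up 180 CPM with 803 of its 1037 UMIs in 1 barcode, and with Sox9 and Cldn4 among those at 0 in members. Stellate and fibroblast markers summed to 201 CPM in members and 20.9 CPM in other Kupffer barcodes, mostly through the Dcn and Col3a1 barcode above. Dcn had a UMI in 12 members, and without the top barcode of each group its ratio was 3.20. Hepatocyte markers outside the rule, by contrast, summed to 970 CPM in members, 351 CPM in other Kupffer and 39424 CPM in Alb-high barcodes. Of 12 measured, 9 were at least 2-fold higher in members, where the share over all measured genes was 3.88%. As above, a gene could be measured through members alone. Fgb, also listed, was too scarce to be measured, with 6 UMIs in members and 2829 in Alb-high barcodes.

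Liver enzyme RNA climbed in steps with the rule-gene count, also below the limit. The 184 enzyme genes outside the rule summed to 5036 CPM in Kupffer barcodes with 0 rule UMIs, 5737 CPM with 1, 6276 CPM with 2 and 7004 CPM with 3. Among members they summed to 8857 CPM with 4 or 5 UMIs, 10100 CPM with 6 to 9 and 16427 CPM with 10 or more, against 46602 CPM in Alb-high barcodes. Secreted proteins without Alb stood at 2266 CPM with 0 rule UMIs and 3628 CPM with 10 or more, against 81531 CPM in Alb-high barcodes. Kupffer identity genes held between 8404 and 10193 CPM over all of these steps.

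**Figure D3:**
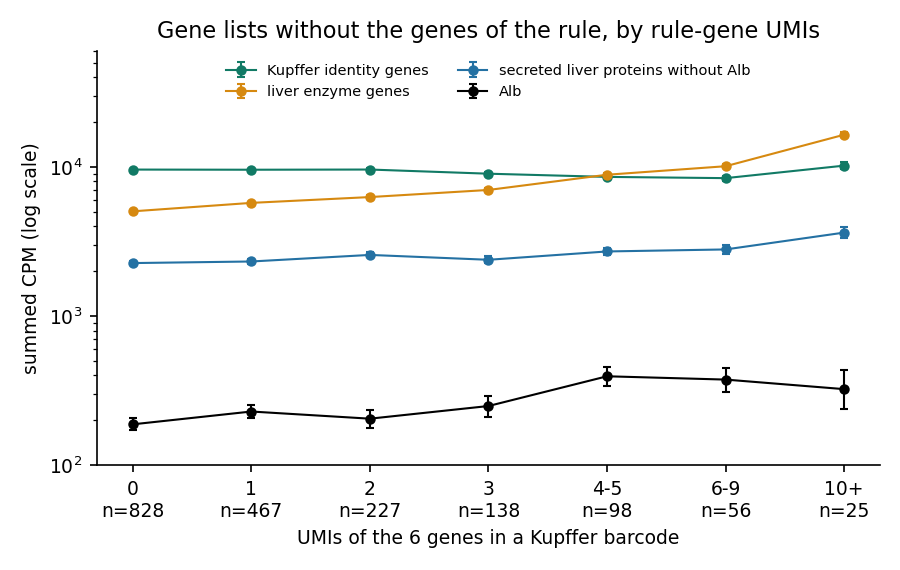
Summed CPM (log scale, with exact Poisson 95% intervals) of 184 liver enzyme genes, 31 secreted liver proteins, Alb and 14 Kupffer identity genes, by the rule-gene UMIs of a Kupffer barcode, with the number of barcodes under each step. Enzyme genes climb to 16427 CPM at 10 or more UMIs, while Kupffer identity genes stay between 8404 and 10193 CPM.

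Per barcode, the same enzyme genes made up 0.258 to 8.14% of UMIs in members with a median of 1.13%, against 0.0489 to 3.23% with a median of 0.539% in other Kupffer barcodes, and 0.242 to 7.46% with a median of 4.88% in Alb-high barcodes. The groups overlapped widely. More than 2% was reached by 28 of 179 members, 12 of 1660 other Kupffer barcodes and 46 of 62 Alb-high barcodes. The member at 8.14% had 1768 UMIs, 10 UMIs of the 4 Kupffer genes, 15 rule UMIs and 3 Alb UMIs. The member with the most rule UMIs, 27, had 6833 UMIs, 93 of the 4 Kupffer genes and 3 of Alb.

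Depth moved with membership. Members were 4.75% of Kupffer barcodes with 1000 to under 2000 UMIs (31 of 653), 9.72% with 2000 to under 4000 (63 of 648), 15.5% with 4000 to under 8000 (63 of 407) and 16.8% with 8000 or more (22 of 131). Within these depth ranges, low to high, enzyme RNA was 3.003, 2.44, 1.98 and 1.32 times as high in members as in other Kupffer barcodes. The secreted proteins without Alb gave 1.52, 1.42, 1.32 and 0.971, and Kupffer identity genes 0.936, 0.925, 0.985 and 0.951. The enzyme difference was thus present at each depth and smallest in the deepest barcodes. The rule asks for the same number of rule-gene UMIs at any depth, which is a smaller share of a deeper barcode. This choice by itself raises the share of members and lowers the enzyme ratio as depth grows. Whether the cells themselves differed with depth was therefore not tested.

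The genes that varied most like the rule sum were liver genes. Over 1186 Kupffer barcodes thinned to 2000 UMIs each, which left out 31 members and 622 other Kupffer barcodes as too shallow, Spearman's rho with the rule sum was highest for Bhmt at 0.318. Also among the highest were Fabp1 at 0.293, Gnmt at 0.282, Ass1 at 0.279, Fbp1 at 0.269, Uox at 0.266, Aldh1a1 at 0.261, Gsta3 at 0.257 and Ndrg2 at 0.249. Aldh1l1 ranked 23 of 8159 genes at 0.205. These coefficients are weak, from sparse counts of 1 library, and are given as a description only. The lowest were Cyba at -0.154, Ubb at -0.150 and Hspa1b at -0.135.

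The enzyme genes were present in members in a different proportion to Alb than in Alb-high barcodes. Of 217 hepatocyte genes with at least 20 UMIs in both groups together, 157 had at least 2-fold more UMIs per Alb UMI in members, 32 had 0.5 times or less, and the median was 8.45. The limit on Alb is part of the rule, and Alb-high barcodes were chosen for high Alb, and both push this ratio up. Beyond the filters, Alb-high barcodes were chosen by Alb alone, from the early lesion library, and which cells they are was not tested. Their cholangiocyte markers summed to 6832 CPM, of which Spp1 made up 4938 CPM. The proportion in normal hepatocytes was not measured. Of all 9086 genes tested so, 95% passed 2-fold, and of 547 genes at least 10-fold higher in Alb-high than in other Kupffer barcodes 50.6% passed.

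The secreted proteins and the other hepatocyte genes parted by this measure. Of 31 secreted genes 5 had at least 2-fold more UMIs per Alb UMI in members and 19 had 0.5 times or less, with a median of 0.369. Of 180 hepatocyte genes outside the secreted list and the rule 146 had at least 2-fold more, with a median of 10.4. These 180 are enzyme genes and transcription factors, some of which, such as Cebpb, were also present in other Kupffer barcodes. Over all 9086 genes the share was 95%, so the 146 do not stand out by count. Set against the summed secreted proteins in place of Alb, 145 of the 217 passed. Other Kupffer barcodes gave the same order, with a median of 0.399 for the secreted genes and 6.20 for the 180.

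Per 100 Alb UMIs, Gnmt had 61.7 UMIs in members and 2.94 in Alb-high barcodes, Ass1 65.2 and 5.63, and Fabp1 95.3 and 10.2. Aldh1l1 had 43.1 per 100 Alb UMIs in members and 0.974 in Alb-high barcodes, 44.2 times as many (34.6 to 56.3). Hgd, which opens the ring of homogentisate, had 21.2 and 0.220. At the other end, Apoa1 had 12.98 in members and 27.2 in Alb-high barcodes, Ttr 12.7 and 34.4, and the fibrinogen gene Fgb 1.77 and 12.99. The rule genes, which the choice itself enriched, ran from 41.4 times for Mat1a to 3773 times for Oat. Outside the rule, the genes given per 100 Alb UMIs above ran from 0.136 times for Fgb to 96.3 times for Hgd. Higher still were Glul at 1064 times, on 30 Alb-high UMIs, and Cyp2e1 at 1862 times, on 1. The choice of both groups by Alb bears on all of these ratios. Some listed genes were as high in other Kupffer barcodes, such as Glul. With the CPM of other Kupffer barcodes subtracted, 137 of the 180 genes had at least 2-fold more per Alb UMI, at a median of 9.31.

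**Figure D4:**
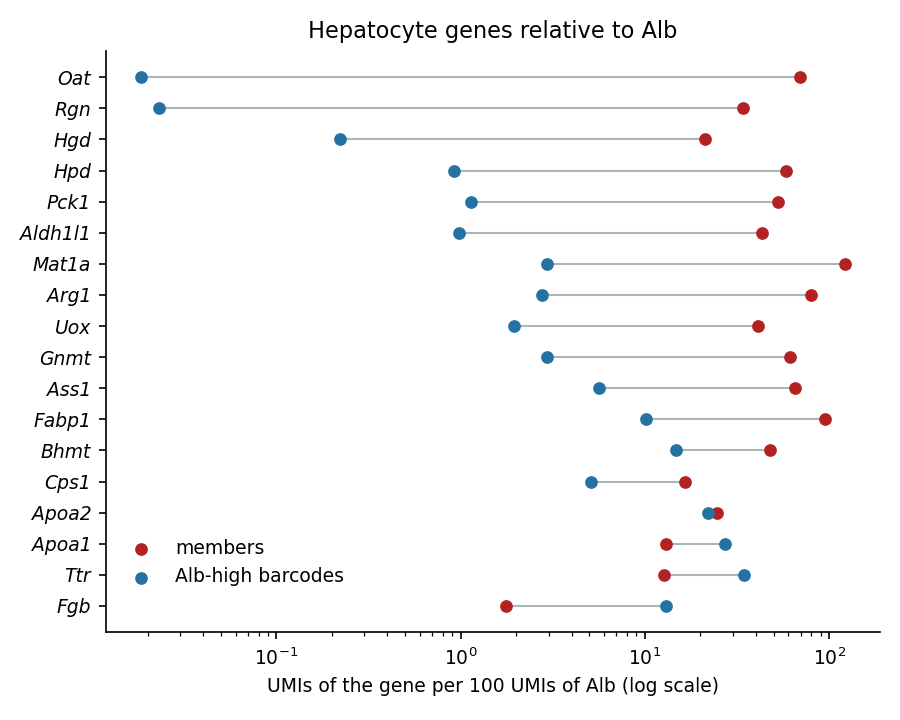
UMIs of each gene per 100 UMIs of Alb (log scale) in members (red) and Alb-high barcodes (blue), with lines joining the 2 values of a gene. Enzyme genes from Oat to Cps1 lie higher in members, Apoa2 is near equal, and Apoa1, Ttr and Fgb lie lower.

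The excess over other Kupffer barcodes was also larger for most enzyme genes than for secreted proteins. Members were chosen by enzyme genes under a limit on Alb, and Alb-high barcodes by high Alb. Both choices push toward this division, so it is a description and no separate support. The amount by which members exceeded other Kupffer barcodes was 0.815% of the Alb-high level for Alb, 0.480% for Apoa1 and 0.302% for Ttr. It was 4.53% for Cps1, 4.83% for Bhmt, 12.7% for Fabp1, 16.6% for Ass1, 28.6% for Gnmt, 30.3% for Uox and 68.2% for Aldh1l1. Of 80 measured enzyme genes with at least 100 CPM in Alb-high barcodes 60 reached 5%, with a median of 9.60%. Of 15 such secreted genes none did, with a highest value of 2.21%. Measured genes had at least 10 CPM in members or other Kupffer barcodes, so genes scarce in both were not counted, which raises these shares. Among those left out were Slc2a2 and G6pc, with 464 and 241 UMIs in Alb-high barcodes and none in members.

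Members without any Alb UMI held no less enzyme RNA than members with one. The enzyme genes outside the rule summed to 11782 CPM in the 44 members without Alb and 10200 CPM in the 135 with Alb, against 5473 CPM in the 980 other Kupffer barcodes without Alb and 5889 CPM in the 680 with Alb. Fabp1 was at 343 CPM in members without Alb and 363 CPM in members with Alb. Bhmt was at 239 and 167 CPM and Gnmt at 227 and 234 CPM in the same groups, with overlapping intervals. Aldh1l1 was at 313 CPM (233 to 411) in members without Alb and 129 CPM (104 to 158) in members with Alb. Members without Alb were shallower, at a median of 3024.5 against 4132 UMIs.

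Few barcodes of the other cell classes reached the limit of the rule. No barcode of 230 macrophages on the Gpnmb and Mmp12 side reached 4 rule UMIs, which allows a share of up to 1.30% at 3 barcodes (exact upper bound 1.59%), although these had a median of 7900 UMIs against 2627 in all Kupffer barcodes. None of 82 T and NK, 36 endothelial or 37 neutrophil barcodes did, which allows up to 3.66%, 8.33% and 8.11% at 3 barcodes (exact upper bounds 4.40%, 9.74% and 9.49%), at medians of 2678, 5527 and 1555 UMIs. Of 114 cholangiocyte barcodes 3 did (2.63%), at a median of 10523 UMIs. After thinning to 2000 UMIs, 216 of 1186 Kupffer barcodes (18.2%) had at least 2 rule UMIs, against 1 of 221 Gpnmb-side macrophages (0.452%) and none of 67 T and NK or 113 cholangiocyte barcodes.

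**Figure D5:**
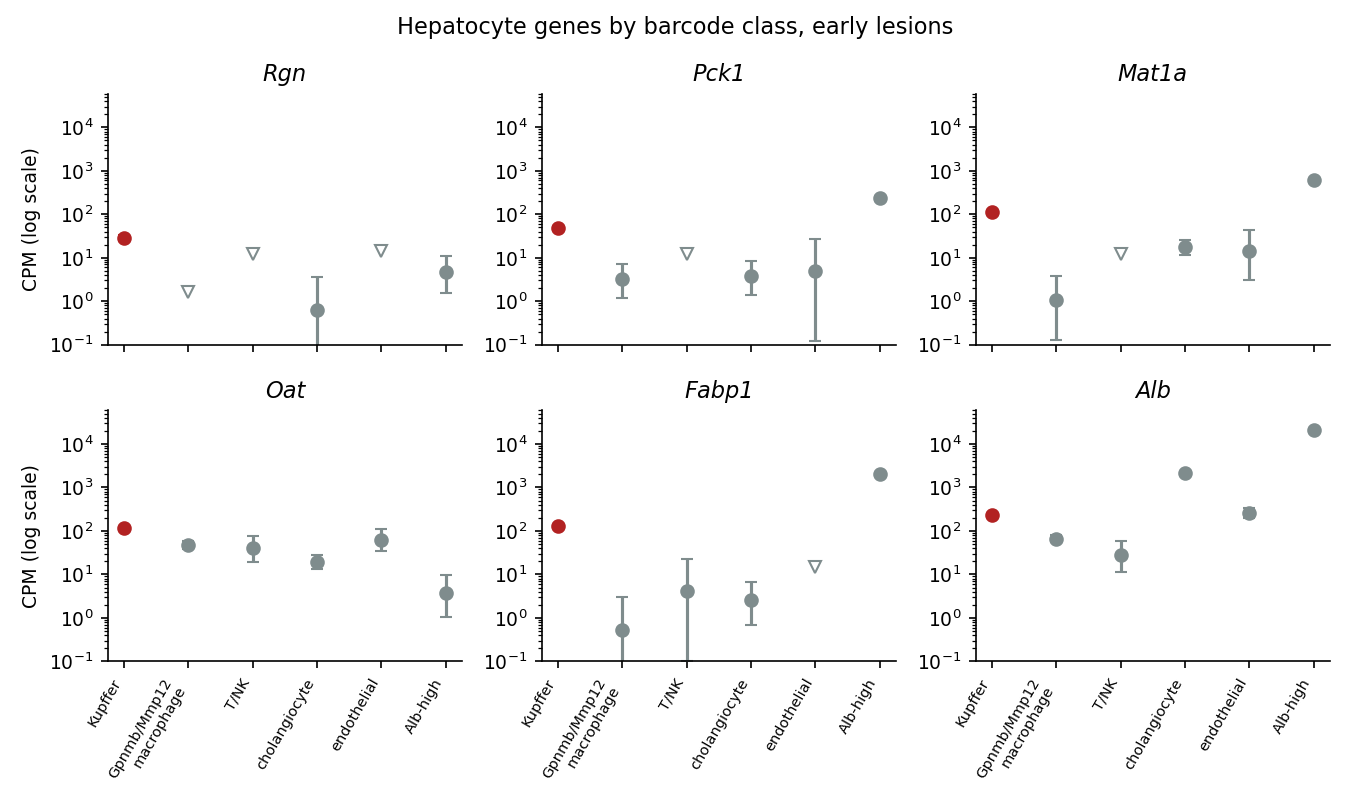
CPM (log scale, exact Poisson 95% intervals) of 6 genes in all Kupffer barcodes (red) and 5 other classes (grey) of the early library; neutrophil barcodes, with few UMIs, are not drawn. Open triangles mark a class with no UMI, drawn at the level of 3 UMIs. Rgn, Pck1, Mat1a and Fabp1 are higher in Kupffer barcodes than in each other class drawn except Alb-high, where Rgn is lower, and Alb is higher in cholangiocyte than in Kupffer barcodes.

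Gene by gene, hepatocyte RNA did not appear in equal amounts in all classes. Rgn was at 28.9 CPM in Kupffer barcodes, on 192 UMIs, and at 0 UMIs in Gpnmb-side macrophages, where 3 UMIs would be 1.62 CPM. Fabp1 was at 129 CPM in Kupffer barcodes and 0.539 CPM in Gpnmb-side macrophages, Mat1a at 111 and 1.08 CPM, and Bhmt at 53.7 and 2.70 CPM. Oat was closer, at 116 CPM in Kupffer barcodes and 47.4 CPM in Gpnmb-side macrophages, with a UMI in 29.5% and 31.3% of barcodes. Alb was at 233 CPM in Kupffer barcodes and 66.3 CPM in Gpnmb-side macrophages, and at 2134 CPM in cholangiocyte barcodes, in which Rgn was at 0.644 CPM and Fabp1 at 2.58 CPM.

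Members were spread over the Kupffer states of the library. A UMI of Cd207, the langerin gene, was present in 54.7% of members and 42.0% of other Kupffer barcodes, and after thinning to 2000 UMIs in 43.9% (35.8 to 52.3%) and 38.5% (35.6 to 41.6%). For Fabp7, a fatty acid binding protein, the thinned shares were 71.6% of members and 68.1% of other Kupffer barcodes. For Marco, a scavenger receptor that the rule used, they were 68.9% of members and 78.6% of other Kupffer barcodes. Counted the other way, members were 12.3% of 795 barcodes with Cd207, 11.03% of 1333 with Fabp7 and 5.63% of 284 with Marco and neither of the others. These last had a median of 1653 UMIs, and their rule genes summed to 465 CPM, against 380 CPM with Cd207 and 364 CPM with Fabp7.

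In the macroscopic library 3 barcodes met the Kupffer definition and 1 of them had 4 rule UMIs, too few to describe the later stage.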

How the data were processed

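The deposited files hold raw UMI counts per gene and barcode, with no normalization; per the file headers the authors made them with Cell Ranger, and per the submitters' processing notes Cell Ranger 3.0.2, Seurat 2.3.0 and mm10 were used, with roles not given. Libraries were made with a 10x 3′ kit, per the labels' protocols. Cell annotation and the filter behind the barcodes were not given in the sources used here, so classes were rebuilt from marker genes. No column of per-sample values was left unused.

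UMIs were summed per group and given as CPM with exact Poisson intervals. Ratios of CPM carry exact conditional binomial intervals, shares exact Clopper-Pearson intervals, and ratios to Alb conditional intervals, all at 95%. A gene with no UMI was set at a floor of 3 counts per group. Measured genes had at least 10 CPM in either group and 20 UMIs in both. Thinning drew 2000 UMIs per barcode (seed 0). The genes named were the 15 highest and 10 lowest ratios among measured genes with at least 50 CPM in the higher group and an interval that left out 1, the rule genes, Aldh1l1, Alb, and up to 4 genes per list with the highest CPM; further genes were named after their values were seen. The members and the 36 gene lists were chosen with earlier results of these data known. Coordinates of gene starts and the sequences are from RefSeq (GRCm38.p6), which matched 4 of the 6 rule genes, Aldh1l1 and Alb. Python 3.11.15, NumPy 2.4.6, SciPy 1.17.1, pandas 2.3.3 and Scanpy 1.11.5 were used. The comparison was tested on simulated data. Alternatives varied the barcode filters, the limits of the rule, weighting, thinning, scaling and the filter on low counts. Some genes covered by the naming rule are not reported here.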

Additional observations from a re-analysis of the deposited data

How the results depend on the processing

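The number of members was 179, and 81 with a limit of 6 rule UMIs. The count of genes at least 2-fold higher in members (327) was 509 with that limit, 1781 with no filter on low counts and 70 with at least 50 CPM. The count at least 2-fold lower (123) was 321 with a limit of 6 UMIs, 278 where the rule asked for 0.1% of UMIs, 194 with equal weight per barcode, 440 after thinning to 2000 UMIs, 2324 with no filter and 11 with at least 50 CPM. In alternatives added after the data were seen, it was 217 without barcodes of 8000 or more UMIs and 233 without the top barcode per gene and group. Without the deep barcodes 101 of the hepatocyte genes passed 2-fold per Alb UMI, against 157, with 9 Alb-high barcodes left. The Kupffer share was 18.2% with 2 UMIs after thinning.

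Of single genes, the log2 ratio turned to -3.91 for Igfbp5, -0.54 for Dcn and -3.33 for Alox15 with the 0.1% limit, and to -0.88 for Alox15 without deep barcodes. For Clu it turned to 0.35 with Alb under 0.1%, 0.23 with at least 6 Kupffer UMIs and 0.32 without deep barcodes. The cause was not tested, beyond the 1 barcode that holds most UMIs of each. Aldh1l1 ran from 2.3 to 3.25 over 14 alternatives. The other genes run so (the rest of the 15 highest and 10 lowest, the rule genes and Alb) kept their direction, but not all kept their size. At the least, the log2 ratio was -0.016 for Spp1, -0.24 for Retnla and 1.36 for Arg1. Further genes named in the text were not run. No paired analysis was possible because each stage has 1 library. The Rgn and Oat values of Alb-high barcodes rest on 5 and 4 UMIs, with upper bounds of 10.98 and 9.63 CPM.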
